A study of Mus musculus with 16 samples.

Results

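The genes described here serve noradrenaline synthesis, noradrenaline uptake and adrenergic signalling. They are the 8 genes Dbh, Slc6a2, Adra1a, Adra1b, Adra1d, Adra2a, Adra2c and Adrb1, taken by symbol from the 24062 genes of the counts table, and all 8 were also in the FPKM table. RNA-seq was run on the whole brain, cerebellum included, of 16 female mice of the inbred strain C57BL/6J at postnatal day 45, with 4 mice in each of 4 groups and 1 library per mouse. WW mice drank only water. NW mice had nicotine at 200 µg/ml as their drinking fluid for 22 h per day. Water-Ethanol mice (marked by their initials on the axes and legends of the plots) had water instead of nicotine, and then drank 20% v/v ethanol in limited sessions during the dark phase on 4 days, a schedule known as drinking-in-the-dark. NE mice had both nicotine and ethanol. All mice were housed singly and belong to a subset of the animals of the behavioural study, and the last ethanol session lasted 4 h and ended at dissection. During those 4 h no nicotine was available to the NW and NE mice. In the behavioural study, the paper reports more ethanol drunk on the last day and higher blood ethanol in NE than in Water-Ethanol mice. Replicate numbers are mouse numbers, so each value is a separate animal. Since the tissue was the whole brain, a gene used in a small nucleus is diluted by all other RNA, and fewer cells of a type cannot be told apart from less RNA per cell.

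Noradrenaline is made from dopamine by dopamine beta-hydroxylase, the product of Dbh, in neurons of the locus coeruleus and other brainstem groups that project to nearly the whole brain. The transporter encoded by Slc6a2 takes it back up into these neurons. The receptors sit on target cells and, for the alpha-2 class, also on noradrenergic neurons themselves. The alpha-1 receptors act mainly through Gq and phospholipase C, the alpha-2 receptors through Gi/o, and the beta receptors through Gs and cyclic AMP. Noradrenergic signalling is known for its roles in arousal, attention and stress, and its drugs have been studied in alcohol and nicotine withdrawal.

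Counted reads per mouse ranged from 27.1 M to 32.9 M (median 29.4 M). A pair of mice stood apart from the others. Gabra6, a GABA receptor subunit of cerebellar granule cells, stood at 1067 normalised reads in WW mouse 21 and 1650 in NW mouse 10, against 3414 to 4475 in the other 14 mice. The mean centred log2 level of 9 hindbrain and serotonin neuron genes was -1.39 and -1.28 in the same mice, against -0.70 to 0.84 in the other 14. Normalised read counts here are counts scaled by library size and TMM factor to the median library. Both mice stayed in the comparisons. No gene of the set was called without them either, and some values are also given without them.

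Per transcript length, the receptors stood well above the synthesis and uptake genes. Adra1d had the highest mean at 11.4 ± 1.11 FPKM (SD, n = 16 mice), followed by Adrb1 at 9.47 ± 0.825 FPKM. Adra2a stood at 6.32 ± 0.293, Adra2c at 6.23 ± 0.533, Adra1b at 5.82 ± 0.398 and Adra1a at 3.56 ± 0.231 FPKM. Dbh reached 1.19 ± 0.175 FPKM and Slc6a2 0.642 ± 0.0804 FPKM, so that the highest mean was 17.8 times the lowest. Some neighbours in this order overlapped in their ranges over mice: Adra1d exceeded Adrb1 in 15 of 16 mice, Adra2a exceeded Adra2c in 12, and Adra2c exceeded Adra1b in 13. The other neighbours did not overlap. The order was kept within WW, NW and Water-Ethanol, while Adra2c stood above Adra2a in NE, and library-scaled read counts per kilobase of exon gave the same order over the 16 mice. Adra2b and Adrb3, receptors outside the 8 genes, were scarce, with means of 0.533 and 0.428 FPKM. The enzymes upstream of Dbh, which dopaminergic neurons also use, stood higher: Th, tyrosine hydroxylase and the rate-limiting enzyme of catecholamine synthesis, had a mean of 9.96 FPKM, and Ddc, the decarboxylase that makes dopamine from L-DOPA, 10.2 FPKM.

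**Figure D1:**
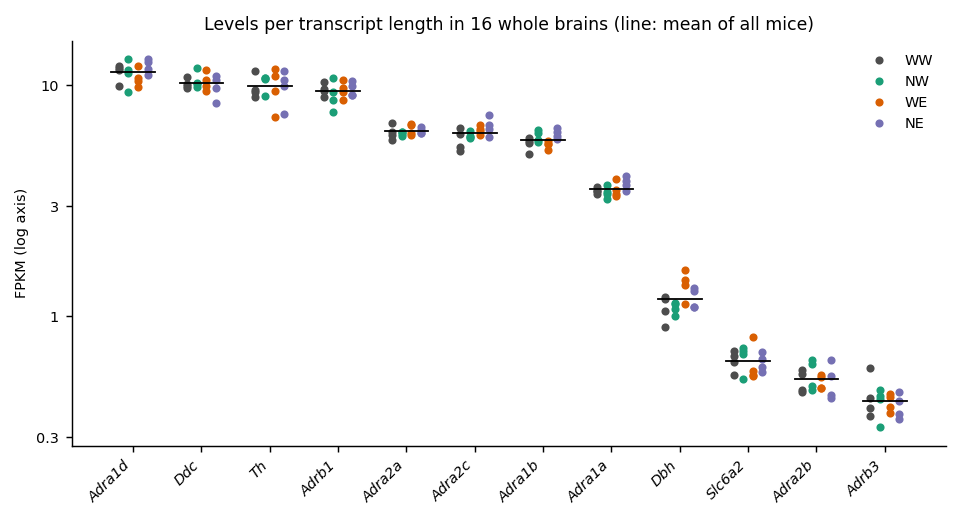
FPKM (vertical log axis) of the 8 genes, Adra2b, Adrb3, Th and Ddc in each of 16 mice (points, coloured by group), with the mean of all mice as a line. The 6 receptors of the set lie between 3.23 and 12.98 FPKM, and Dbh and Slc6a2 between 0.537 and 1.59.

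None of the 8 genes passed the test in any comparison. Each treated group was set against WW with edgeR's quasi-likelihood test over all genes that had enough reads, and all 8 genes were tested each time. In NW, 0 of the 8 had a Benjamini-Hochberg adjusted p under 0.05, as had 0% of all genes tested, and 0 had an unadjusted p under 0.05, against 8.44% of all genes. In Water-Ethanol, 0 were called, against 0.457% of all genes, and 1 (Dbh) had an unadjusted p under 0.05, against 19.3%. In NE, 0 were called, against 0.313%, and 2 (Adra1b and Adra2c) had an unadjusted p under 0.05, against 17.5%. No gene of the set had groups that did not overlap, where 5.96% of all genes in NW did, 10.8% of those in Water-Ethanol and 10.7% of those in NE. The 8 genes had a median log2 fold change of 0.00 in NW and in Water-Ethanol and of 0.09 in NE, where the median of all genes tested was 0.01, 0.00 and 0.00. In NE, 6 of the 8 estimates lay above 0. DESeq2 and limma called none of the 8 either, where they gave an adjusted p, since DESeq2 left Dbh or Slc6a2 without one in 7 cases. The WW mice are the controls of all these comparisons, which are therefore not independent.

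The fit of all 16 mice gave the ethanol effect (the mean of Water-Ethanol minus WW and NE minus NW), the nicotine effect, and their interaction. For the ethanol effect, 0 of the 8 genes were called, against 4.5% of all genes, and 2 (Dbh and Adra2c) had an unadjusted p under 0.05, against 22.9%. For the nicotine effect, 0 were called, against 0%, and 1 (Adra1b) had an unadjusted p under 0.05, against 10.3%. For the interaction, 0 were called, against 0%, and 0 had an unadjusted p under 0.05, against 6.76%. The median log2 change of the 8 genes was 0.03 for ethanol, 0.04 for nicotine and 0.03 for the interaction, beside 0.00 for all genes in each. The 95% intervals bound what these data allow. In NW, NE, the ethanol effect and the nicotine effect, all 8 intervals lay within 0.5 log2 units of 0. In Water-Ethanol and in the interaction 7 of 8 did, the exception being Dbh both times.

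**Figure D2:**
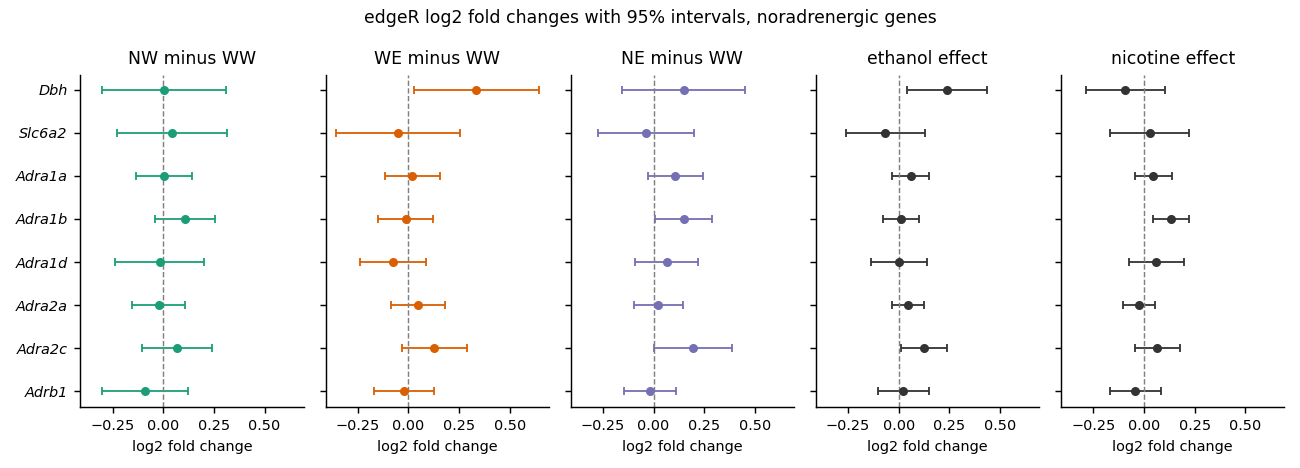
Log2 fold change (horizontal axis) of each of the 8 genes (rows) with its 95% interval from edgeR, in NW, Water-Ethanol and NE against WW and for the ethanol and nicotine effects over all 16 mice. The point farthest from 0 is Dbh in Water-Ethanol at 0.33, whose interval runs from 0.03 to 0.64.

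Dbh (ENSMUSG00000000889, GRCm38 chr2:27165507-27183204, plus strand, 12 exons) had the fewest reads of the set, 72.1 per mouse on average. In WW mice 18, 19, 20 and 21 it stood at 73.3, 71.8, 64.3 and 54.4 normalised reads. In NW mice 7, 8, 10 and 11 it stood at 62.1, 69.6, 71.9 and 61.3, inside the WW range throughout. In Water-Ethanol mice 13, 14, 15 and 16 it stood at 68.7, 95.1, 82.8 and 85.8, so that 3 of 4 mice were above every WW mouse. In NE mice 2, 3, 4 and 5 it stood at 79.1, 81.1, 65.3 and 66.6, with 2 of 4 above every WW mouse. The group means were 66.0 ± 8.63, 66.2 ± 5.32, 83.1 ± 10.9 and 73.0 ± 8.20 (SD, n = 4), in this order of groups. The WW and Water-Ethanol groups overlapped through Water-Ethanol mouse 13 alone, and the lowest value of all 16 mice was that of WW mouse 21.

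The log2 fold change of Dbh in Water-Ethanol was 0.33 (SE 0.14, 95% interval 0.03 to 0.64, or 1.02- to 1.56-fold), with an adjusted p of 0.223, and an exact two-sided permutation test of 4 against 4 mice gave p = 0.0857, where 0.0286 is the smallest p it can give. In NE it was 0.15 (SE 0.14, interval -0.16 to 0.45, adjusted p = 0.630), and in NW 0.00 (SE 0.14, interval -0.30 to 0.31, adjusted p = 0.997). The ethanol effect was 0.24 (SE 0.09, interval 0.04 to 0.43), with an adjusted p of 0.140 over all genes and an unadjusted exact permutation p of 0.0167 with mice exchanged within nicotine and non-nicotine groups. The interaction, NE minus NW set against Water-Ethanol minus WW, was -0.19 (SE 0.19, interval -0.58 to 0.20, adjusted p = 0.890). The ethanol step was thus not shown to differ with nicotine. Without WW mouse 21 and NW mouse 10, the estimates were 0.26 in Water-Ethanol (adjusted p = 0.3203), 0.07 in NE and 0.22 for the ethanol effect (adjusted p = 0.170). The spread of Dbh within groups, a coefficient of variation of 11.8%, equalled that from counting error alone at this depth.

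Markers of the hindbrain, where noradrenergic neurons lie, also had their highest median in Water-Ethanol. The 9 genes listed for hindbrain and serotonin neurons had a median score (mean centred log2 level) of 0.06 in WW, 0.02 in NW, 0.53 for Water-Ethanol and 0.12 in NE. Their summed level ran from 633 to 1093 normalised reads in WW and from 749 to 1357 in Water-Ethanol. None of the 9 was at 0 in all 16 mice. Their lowest scores, -1.39 and -1.28, belonged to WW mouse 21 and NW mouse 10. The lowest score of a group went with its lowest Dbh in WW (mouse 21, 54.41 normalised reads) and Water-Ethanol (mouse 13, score -0.56, 68.73). It went with the highest Dbh in NW (mouse 10, 71.89) and in NE (mouse 3, score -0.7, 81.05). In Water-Ethanol the median log2 fold change of the 8 list members tested was 0.75, with 0 called and 1 at an unadjusted p under 0.05, against the 19.3% above. The 6 genes listed for noradrenergic neuron identity had median scores of -0.12 in WW, -0.02 in NW, 0.10 for Water-Ethanol and -0.01 in NE, and summed levels of 646 to 788 normalised reads in WW and 721 to 897 in Water-Ethanol. The part of these markers in the Dbh values was not tested.

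Slc6a2 (ENSMUSG00000055368, chr8:92961047-93001667, plus strand, 14 exons), the noradrenaline transporter, had groups that overlapped throughout. It stood at 95.9, 110.0, 116 and 121 normalised reads in the WW mice, in the order above, and at 121, 118, 92.6 and 123 in the NW mice. In Water-Ethanol it stood at 97.6, 95.1, 139 and 95.3, with mouse 15 high and the others close together. In NE it stood at 118, 104, 110 and 98.9, inside the WW range throughout. The log2 fold changes were 0.04 in NW (95% interval -0.23 to 0.31), -0.05 in Water-Ethanol (-0.36 to 0.25) and -0.04 in NE (-0.28 to 0.20), with adjusted p of 0.951, 0.876 and 0.893. Single mice moved these small values: without Water-Ethanol mouse 15 the estimate in that group was -0.21 (adjusted p = 0.472), with each other mouse left out in turn it lay closer to 0 than that, and in NW it was 0.17 (adjusted p = 0.630) without WW mouse 21 and NW mouse 10. Dbh and Slc6a2 are both used in noradrenergic neurons, and no relation between them was detected over the 16 mice. With group means removed, Pearson's r was -0.29 (permutation p = 0.350, adjusted over 6 relations 0.858) and Spearman's rho -0.43 (permutation p = 0.139, adjusted 0.835), and r was -0.32 without NW mouse 10 and Water-Ethanol mouse 15. Dbh had r of 0.08 with Th, 0.05 with Ddc, 0.22 with Slc18a2, the vesicle transporter that loads monoamines, and -0.30 with Phox2a, a transcription factor of noradrenergic neurons, each with an adjusted permutation p of 0.858. Counting error alone is large for both genes (9.52% for Slc6a2), which limits what such a relation can show.

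Among the alpha-1 receptors, Adra1b (ENSMUSG00000050541, chr11:43774605-43901237, minus strand, 5 exons) had its highest group means in the 2 nicotine groups. It stood at 438, 495, 502 and 516 normalised reads in WW and at 528, 561, 500.0 and 510 in NW, where 2 of 4 mice exceeded every WW mouse. Water-Ethanol gave 457, 486, 498 and 487, all inside the WW range. NE gave 525.5, 577, 542 and 516, with 3 of 4 mice above every WW mouse. The log2 fold change was 0.11 in NW (SE 0.07, 95% interval -0.04 to 0.26, adjusted p = 0.696), -0.01 in Water-Ethanol (interval -0.15 to 0.12) and 0.15 in NE (SE 0.06, interval 0.01 to 0.29, adjusted p = 0.261, exact permutation p = 0.0571). The nicotine effect over all mice was 0.13 (SE 0.04, interval 0.05 to 0.22, or 1.03- to 1.17-fold), with an unadjusted exact permutation p of 0.00204 and an adjusted p of 0.283 over all genes. Over the alternatives its adjusted p ran from 0.158 to 0.893, and it was 0.203 without the 2 mice low in cerebellar genes.

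Adra1a (ENSMUSG00000045875, chr14:66635251-66771168, plus strand, 5 exons) stood at 415, 390.4, 409 and 428 normalised reads in WW and at 409, 386, 415 and 433 in NW. In Water-Ethanol it stood at 402, 400.0, 453 and 405, with mouse 15 apart from the others. In NE it stood at 409, 438, 445 and 474, with 3 of 4 mice above every WW mouse. Its log2 fold change in NE was 0.11 (SE 0.06, 95% interval -0.03 to 0.24, adjusted p = 0.397, exact permutation p = 0.0857). In NW and Water-Ethanol it was 0.00 (interval -0.14 to 0.14) and 0.02 (interval -0.12 to 0.15).

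Adra1d (ENSMUSG00000027335, chr2:131545357-131562285, minus strand, 2 exons), the most abundant adrenergic receptor of the set, varied from mouse to mouse, with a coefficient of variation within groups of 10.1% against 3.66% from counting. It stood at 786, 653.5, 769 and 789 normalised reads in WW, at 594, 741, 855 and 769 in NW, at 697, 702, 647 and 790.3 in Water-Ethanol and at 737, 833.5, 727 and 831 in NE. The groups overlapped, and NW held both the lowest and the highest mouse. The log2 fold changes were -0.02 in NW (95% interval -0.24 to 0.20), -0.08 in Water-Ethanol (-0.24 to 0.08) and 0.06 in NE (-0.09 to 0.22), with adjusted p of 0.973, 0.606 and 0.692.

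The mouse-to-mouse values of Adra1d followed markers of forebrain projection neurons. With group means removed, its log2 level and the score of 4 markers of cortical and hippocampal projection neurons had Pearson's r of 0.82 (permutation p = 0.00402, adjusted over 8 relations 0.0322) and Spearman's rho of 0.77 (permutation p = 0.00318, adjusted 0.0254). Without NW mice 7 and 10, whose scores lay farthest from the median once group means were removed, r was 0.62. In the 14 mice without WW mouse 21 and NW mouse 10, r was 0.77 (adjusted permutation p = 0.0801) and rho 0.62 (adjusted permutation p = 0.242). Adra2c had r of 0.56 and rho of 0.65 with the same score (adjusted permutation p = 0.0944 and 0.104), and r of 0.64 and rho of 0.70 in the 14 mice (0.0801 and 0.142). For the other 6 genes r over 16 mice ran from -0.37 (Slc6a2) to 0.50 (Adrb1), and their lowest adjusted permutation p was 0.396. This score was chosen after the data were examined, so the relation describes these 16 mice. The score ran from -0.03 to 0.22 in WW, -0.23 to 0.21 in NW, -0.19 to -0.04 in Water-Ethanol and -0.06 to 0.10 in NE. All 4 Water-Ethanol mice were thus below every WW mouse in the score, and its part in the Adra1d values was not tested.

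**Figure D3:**
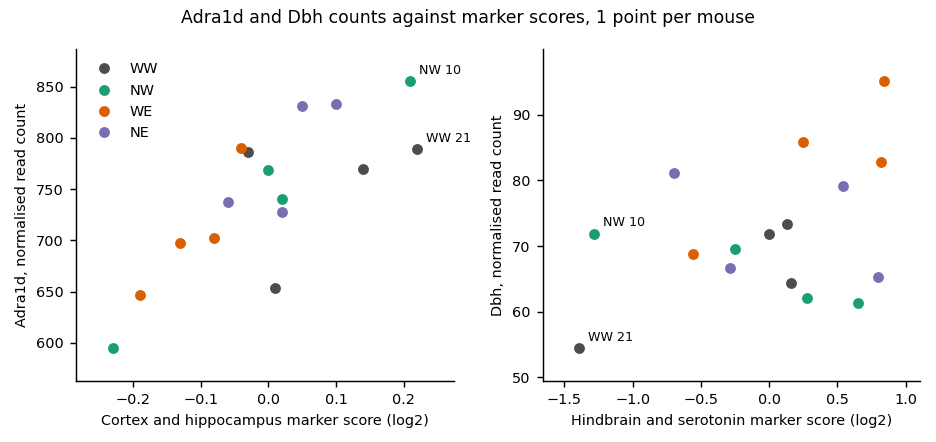
Left, Adra1d normalised read count against the score of 4 cortical and hippocampal projection neuron markers. Right, Dbh against the score of 9 hindbrain and serotonin neuron markers; scores are mean centred log2 levels, each point is 1 mouse coloured by group, the vertical axes do not start at 0, and WW mouse 21 and NW mouse 10 sit at hindbrain scores of -1.39 and -1.28.

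Among the alpha-2 receptors, which slow the firing and release of noradrenergic neurons when they sit on them, Adra2a (ENSMUSG00000033717, chr19:54045182-54048982, plus strand, 1 exon) was the steadiest gene of the set, with a coefficient of variation within groups of 4.65%, near the 3.86% from counting. It stood at 619, 645, 668 and 723 normalised reads in WW and at 633, 663, 646 and 668 in NW. In Water-Ethanol it stood at 655, 712, 722.5 and 648, and in NE at 688, 670.3, 678 and 656. Every treated mouse lay inside the WW range. The log2 fold changes were -0.02 in NW (95% interval -0.15 to 0.11), 0.05 in Water-Ethanol (-0.08 to 0.18) and 0.02 in NE (-0.10 to 0.14); no interval reached beyond 0.18 log2 units.

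Adra2c (ENSMUSG00000045318, chr5:35278566-35281763, plus strand, 1 exon) stood at 437, 469.8, 534 and 553.5 normalised reads in WW. The NW mice had 497.5, 523, 517 and 550.0, and the Water-Ethanol mice 516, 551.5, 541 and 568, the last above every WW mouse. The NE mice had 550.0, 647, 573 and 511, with mice 3 and 4 above every WW mouse. The log2 fold change was 0.07 in NW (95% interval -0.10 to 0.24), 0.13 in Water-Ethanol (SE 0.07, adjusted p = 0.368) and 0.19 in NE (SE 0.09, interval 0.00 to 0.39, adjusted p = 0.282, exact permutation p = 0.171). The ethanol effect was 0.13 (SE 0.05, interval 0.01 to 0.24, adjusted p = 0.175, unadjusted exact permutation p = 0.0400). Of all values for the 8 genes under all settings, the lowest adjusted p was 0.0843, for this effect with the cerebellar score as a covariate, and it was 0.107 without WW mouse 21 and NW mouse 10. WW mice 18 and 19 had the lowest Adra2c of all 16 mice.

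Adrb1 (ENSMUSG00000035283, chr19:56722372-56724862, plus strand, 1 exon), the beta-1 receptor and the only beta receptor of the set, stood at 721, 626, 672 and 698 normalised reads in WW. It stood at 587, 540.5, 761 and 666 in NW, where mice 7 and 8 lay below every WW mouse and mouse 10 was the highest of all 16. Water-Ethanol gave 735, 677, 601 and 655, and NE 634.5, 683, 711 and 651. The log2 fold changes were -0.09 in NW (95% interval -0.30 to 0.12), -0.02 in Water-Ethanol (-0.17 to 0.13) and -0.02 in NE (-0.14 to 0.11), with adjusted p of 0.825, 0.896 and 0.909. The NW estimate was -0.19 without NW mouse 10, -0.01 without NW mouse 8 and -0.16 without NW mouse 10 and WW mouse 21, with adjusted p of 0.463, 0.9752 and 0.537. NW mouse 10, low in cerebellar genes, also had the highest Adra1d and the lowest Slc6a2 of the 16 mice.

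**Figure D4:**
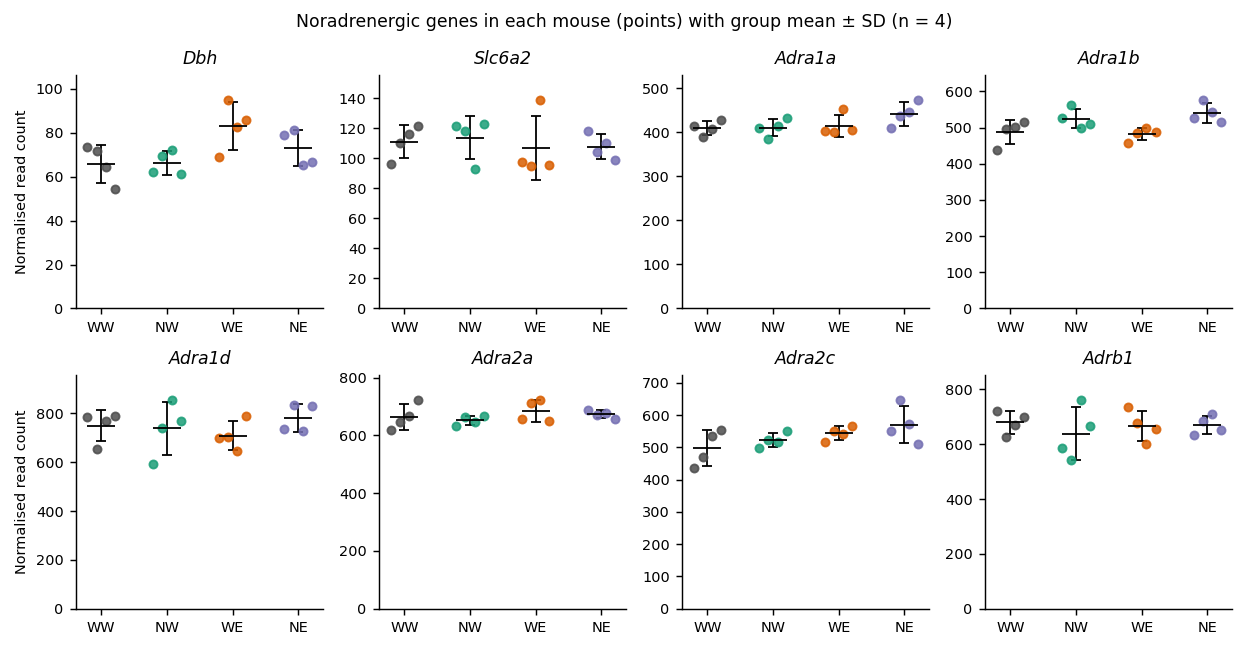
Normalised read count (vertical axes from 0) of each of the 8 genes in every mouse (points) with the group mean and SD (n = 4 per group). Dbh is highest in Water-Ethanol with a mean of 83.1 against 66.0 in WW, and in each panel the treated groups overlap WW.

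Against the score of cerebellar granule cell markers, WW mouse 21 and NW mouse 10 form a cluster of their own at -1.64 and -1.03, with the other 14 mice between 0.01 and 0.35, so no relation over all mice is given. Within the 14 mice Pearson's r with group means removed was -0.33 for Dbh, -0.09 for Slc6a2, 0.09 for Adra1a, -0.21 for Adra1b, 0.05 for Adra1d, -0.42 for Adra2a, -0.55 for Adra2c and -0.27 for Adrb1. The lowest permutation p adjusted over these 8 relations was 0.674.

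Between the 8 genes themselves, Pearson's r of log2 level over the 16 mice was taken with group means kept. The pairs that followed each other most were Adra1b with Adra2c (0.64), Adra2a with Adra2c (0.56) and Adra1d with Adrb1 (0.51). Slc6a2 and Adrb1 ran opposite (-0.60). Among 15591 other genes with enough reads, Adra2c was most like Orai2 (r 0.89), a calcium channel subunit, Abhd8 (0.86) and Palm (0.86). Palm, a membrane protein of neuronal processes, was also among the 3 most like Adra1b (0.84), with 6030419C18Rik (0.84) and Atp5d (0.83). Adra1d was most like Galnt18 (0.87) and Myt1l (0.87), a neuronal transcription factor. Adra2a was most like Arhgap24 (0.87), Zfp36l2 (0.82) and Mc4r (0.81), and Adrb1 was most like Cdc42ep3 (0.86), Arhgap19 (0.84) and Prdm8 (0.83). The genes most like Dbh (Gm13483 at 0.80, Clmp at 0.76 and Dsg2 at 0.75), Slc6a2 (Crb3 at 0.78, Gprin2 at 0.72 and 2810006K23Rik at 0.72) and Adra1a (Trpv6 at 0.75, Gdf11 at 0.75 and Sfrp4 at 0.74) followed less closely. These are the highest of many values over the same 16 libraries, which share depth and tissue composition, and they are given as a description.

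The rest of the pathway was read from lists of genes. Of the 9 genes of noradrenaline synthesis and its cofactor that were tested, 0 were called in any comparison. Pts, an enzyme of tetrahydrobiopterin synthesis, was the lowest in p beside Dbh, with a log2 fold change of -0.14 in NE (adjusted p = 0.218). Pnmt, which makes adrenaline from noradrenaline, had 0.97 to 7.63 normalised reads per mouse and was too low to test. Of 7 genes of storage, uptake and degradation 0 were called, with Slc29a4, a low-affinity monoamine transporter, at 0.15 in Water-Ethanol (adjusted p = 0.198) and Slc18a2 at -0.17 in NW (adjusted p = 0.546). Of the 5 identity genes tested 0 were called, with Ecel1 at a nicotine effect of 0.11 (adjusted p = 0.509). The scarce receptors Adra2b and Adrb3 were not called either, with log2 fold changes in Water-Ethanol of 0.02 (95% interval -0.28 to 0.32) and -0.08 (-0.55 to 0.40).

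Downstream of the receptors, 2 of the 50 genes tested in 4 signalling lists, or 4%, were called for the ethanol effect, near the 4.5% of all genes. In Water-Ethanol and in NE 1 of 50 was called, where 0.457% and 0.313% of all genes were, and a count of 1 gives no result about the lists. None of the 14 genes of the Gq list was called, with Plcb1, a phospholipase C, at -0.16 (adjusted p = 0.0813) and Prkca, a protein kinase C, at -0.13 (adjusted p = 0.114) in Water-Ethanol. None of the 10 genes of the Gi/o list was called, with the G protein subunits Gnai3 at -0.21 (adjusted p = 0.224) and Gnai1 at -0.29 (adjusted p = 0.253) in NW. Of the 18 genes of the Gs and cyclic AMP list 1 rose, Adcy9, in NE and for the ethanol effect, and Adcy6, another adenylate cyclase, had an ethanol effect of 0.21 (adjusted p = 0.0631). Of the 8 genes of the desensitization list that the table holds under these symbols 1 fell, Rgs4, in Water-Ethanol and for the ethanol effect, and Rgs2, also a regulator of G protein signalling, had an ethanol effect of -0.15 (adjusted p = 0.0507). At an unadjusted p under 0.05, the ethanol effect reached 2 of 14 Gq genes, 1 of 10 Gi/o genes, 5 of 18 Gs genes and 4 of 8 desensitization genes, beside 22.9% of all genes, and the list medians were -0.01, 0.00, 0.01 and 0.03 on the log2 scale.

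Rgs4, which speeds the switching off of Gi/o and Gq proteins and is used by many receptors besides the adrenergic ones, stood at 13030, 14370, 14050 and 14010 normalised reads in WW and at 11530, 13820, 14600 and 12810 in NW. In Water-Ethanol it stood at 10870, 11530, 9742 and 11780, and in NE at 10650, 12910, 10800 and 12890, so that every mouse of both ethanol groups was below every WW mouse. It fell by 0.33 on the log2 scale in Water-Ethanol (SE 0.06, adjusted p = 0.0424), and the ethanol effect was -0.25 (SE 0.05, adjusted p = 0.0172). In NE the value was -0.23 (adjusted p = 0.118), and the interaction of 0.18 had an adjusted p of 0.806. The ethanol effect was called under all 25 settings, the main one included. The Water-Ethanol call was lost with limma (adjusted p = 0.114 and 0.103), in the fit of all mice (0.0777) and without WW mouse 19 or 20 or any 1 Water-Ethanol mouse, with estimates from -0.37 to -0.28 over the mice left out. Without WW mouse 21 it was -0.33 (adjusted p = 0.0144).

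Adcy9, an adenylate cyclase that Gs-coupled receptors of many kinds activate, stood at 3160, 3115, 3160 and 3249 normalised reads in WW and at 3030, 3381, 3494 and 3289 in NW. In Water-Ethanol it stood at 3429, 3491, 3842 and 3562, and in NE at 3711, 3708, 3814 and 3536, with every mouse of both ethanol groups above every WW mouse. It rose by 0.22 on the log2 scale in NE (SE 0.03, adjusted p = 0.0372), and the ethanol effect was 0.17 (SE 0.03, adjusted p = 0.00799), called under all 25 settings. In Water-Ethanol the value was 0.18 (adjusted p = 0.0677). The NE call was lost with limma (adjusted p = 0.0645 and 0.0656), with GC offsets (0.0906), and without any 1 NE mouse or WW mouse 18, 19 or 20, with estimates from 0.20 to 0.24 over the mice left out. Without WW mouse 21 it was 0.23 (adjusted p = 0.0243).

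**Figure D5:**
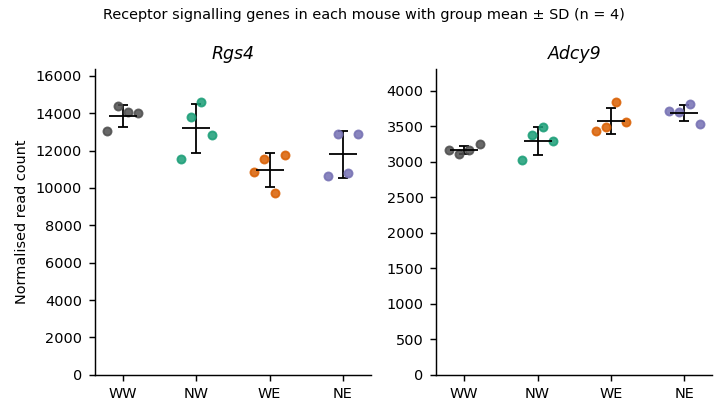
Normalised read count (vertical axes from 0) of Rgs4 and Adcy9 in every mouse (points) with the group mean and SD (n = 4 per group). The 8 mice given ethanol lie between 9742 and 12910 for Rgs4, below the WW mice at 13030 to 14370, and between 3429 and 3842 for Adcy9, above the WW mice at 3115 to 3249. The NW mice, at 11530 to 14600 for Rgs4 and 3030 to 3494 for Adcy9, overlap the mice given ethanol.

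Markers of other cells and regions were read in the same mice. Kcnj13, a potassium channel of choroid plexus, rose by 0.63 in Water-Ethanol (adjusted p = 0.0357), by 0.54 in NE (adjusted p = 0.0372) and by 0.57 for the ethanol effect (adjusted p = 8.43e-05), the 1 gene called of 5 in its list, under 10 of 18 settings in Water-Ethanol, 8 of 18 in NE and all 25 for the ethanol effect. For the ethanol effect, the astrocyte enzyme Aldh1l1 fell by 0.19 (adjusted p = 0.0385) and the microglial chemokine receptor Cx3cr1 by 0.20 (adjusted p = 0.0387), each the only call among 4 markers. The Aldh1l1 and Cx3cr1 calls were made under 12 and 11 of 25 settings. No gene was called in any comparison in the lists of neurons, cerebellar granule cells, Purkinje cells, olfactory bulb, projection neurons and hindbrain. None was called in the lists of pineal gland, meningeal fibroblasts, vascular smooth muscle, endothelium and oligodendrocytes either. The pituitary genes did not pass the filter on low counts, though they were not low in every mouse. Prl stood at 240.7 normalised reads in NW mouse 10 and 47.8 in WW mouse 19, and at 1.1 or less in the others. The same mice had the highest pituitary scores, 1.86 and 0.94. At an unadjusted p under 0.05, meningeal fibroblasts had 6 of 6 genes in NE and 3 of 6 in Water-Ethanol, and olfactory bulb had 4 of 5 in NE, 3 of 5 in NW and 2 of 5 in Water-Ethanol, beside the 17.5%, 8.44% and 19.3% of all genes in NE, NW and Water-Ethanol. List medians were -0.35 in NE for meningeal fibroblasts and -0.34 in NE and -0.29 in NW for olfactory bulb. The olfactory bulb score was 0.23 to 0.32 in WW, -0.47 to 0.14 in NW, -0.73 to 0.36 in Water-Ethanol and -0.50 to 0.21 in NE, so that every NW and NE mouse was below every WW mouse, and its summed level was 2545 to 2611 normalised reads in WW, 1514 to 2460 in NW and 1414 to 2431 in NE. The meningeal score was -0.02 to 0.53 in WW and -0.19 to -0.09 in NE, with summed levels of 5805 to 8712 and 5480 to 5982 normalised reads. Among the lowest p values in these lists were those of Tbr1 at -0.22 (adjusted p = 0.0539) and Syt1 at -0.16 (0.0780), neuronal genes in Water-Ethanol, and of Tph1 of the pineal gland at -1.09 in NE (0.0822). Tph1 had few reads, 6 to 12 per mouse in NE and 15 to 23 in WW. It was the only 1 of 5 pineal genes tested in NE. The other leading genes were the olfactory bulb genes Shisa3 in NW (-0.55, adjusted p = 0.237) and Sp8 in Water-Ethanol (-0.48, 0.105), the meningeal gene Lum in NE (-0.39, 0.112), the hindbrain gene Hoxa2 in Water-Ethanol (1.33, 0.12), and the myelin gene Mog in Water-Ethanol (-0.29, 0.107). In the lists without a call near the threshold the leading genes were Neurod1 of granule cells (ethanol effect 0.30, adjusted p = 0.3001), Grid2ip of Purkinje cells (0.26 in Water-Ethanol, 0.457), Acta2 of smooth muscle (ethanol effect -0.09, 0.201) and Cldn5 of endothelium (0.12 in NE, 0.357). The part of any of these cell types in the values of the 8 genes, Rgs4 or Adcy9 was not tested.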

How the data were processed

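Whole-brain RNA-seq of 16 mice in 4 groups of 4 was analysed from 2 tables. Per the labels and the methods, the authors trimmed reads with Trimmomatic 0.32 after bcl2fastq 1.8.4 and aligned them to GRCm38 (mm10) with TopHat2. The authors deposited raw read counts per gene with exon length and position, 1 column per mouse, and FPKM from Cufflinks and Cuffdiff, which are scaled to transcript length and mapped fragments. The counting program and its use of strand are not given in the sources used here. The labels name a TruSeq RNA kit and the methods a stranded kit. No exon of the 8 genes overlaps an exon of another gene, while those of Adcy3, Gnal, Gnas and Phox2a do.

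Counts were tested with edgeR 4.0.16 in R 4.3.3: TMM factors, filterByExpr, quasi-likelihood fits of the groups compared (all 16 mice for the ethanol and nicotine effects and the interaction), and Benjamini-Hochberg adjustment over all genes tested, with a threshold of 0.05. Normalised counts are TMM-scaled to the median library of 29448284 reads. Single genes were compared by exact two-sided permutation, whose p-values are not adjusted, and relations across mice by 100000 permutations within groups. Scores are mean centred log2 CPM of a list. The 8 genes and the 23 lists (7 of pathways and 16 of markers, 156 symbols) were chosen with earlier results of these data known. Text names all 8 genes, called genes of the lists, the 1 or 2 of lowest p in a list, and the 3 genes most like each of the 8, some of which are not reported here. Alternatives were RLE factors, no filter, DESeq2 1.42.0, limma 3.58.1 on log2(FPKM + 1) or log2(FPKM + 0.1) for genes with a mean FPKM of at least 0.1, GC offsets (a GC value was available for 97.1% of genes), a cerebellar score as covariate, fits of all mice, and leaving out each mouse. Leaving out both mice low in cerebellar genes and the cortical score were added after seeing the data. Intervals of counting error assume independent reads. Of the tests, only the edgeR fits of Water-Ethanol against WW and of the ethanol effect were tried on simulated counts. Other steps used Python 3.11.15, numpy 2.4.6, pandas 2.3.3, scipy 1.17.1 and matplotlib 3.10.9.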

Additional observations from a re-analysis of the deposited data

Results flagged for a closer look

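In 32 sets of 4 mice (8 genes in 4 groups), 4 held a single mouse far from the other 3 by Dixon's test, where chance alone gives about 1 in 20 sets. Slc6a2 had a lone low mouse in NW, mouse 10, at 92.59 normalised reads, and a lone high mouse in Water-Ethanol, mouse 15, at 139 normalised reads. Adra1a had a lone high mouse in Water-Ethanol, again mouse 15, at 452.7. Adra1d had a lone low mouse in WW, mouse 19, at 653.5.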

How the results depend on the processing

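None of the 8 genes was called in any of 1032 values over 129 fits (7 had no adjusted p in DESeq2), and of 984 values under an alternative 904 kept their direction and 80 changed sign, each of the latter from a main value of at most 0.0638 in size and to at most 0.124. The number of genes called over the whole table moved more, and the cause was not tested. DESeq2 called 121 genes in NW, 605 in Water-Ethanol, 508 in NE, 1073 for ethanol, 98 for nicotine and 1 for the interaction. The cerebellar covariate gave 227, 248, 260, 1187 (ethanol) and 1 (interaction). The fit of all mice gave 112 in NW and 28 in Water-Ethanol, no filter 143 in Water-Ethanol, limma 0 in Water-Ethanol and 1 in NE with either pseudocount, and GC offsets 39 and 9 in these. Without both mice low in cerebellar genes 797, 283 and 1061 were called in Water-Ethanol, NE and for ethanol. Leaving out 1 mouse gave 0 to 797 in Water-Ethanol (797 without WW mouse 21, and 0 without WW mouse 19 or 20 or Water-Ethanol mouse 13 or 15, and 1 without 14 or 16), 0 to 283 in NE (283 without WW mouse 21, 0 without NE mouse 4), 280 to 899 for ethanol, 0 to 49 for nicotine (49 without NW mouse 11, 14 without NE mouse 2) and 0 in NW and for the interaction.

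Log2 fold changes that changed sign were, in NW, Dbh at -0.0476 (GC offsets), -0.0046 (covariate) and -0.1122 (without both mice), Adra1a at -0.0168 and -0.0213 (limma) and -0.0086 (GC offsets), and Adra2a at 0.0292 (without both mice). In Water-Ethanol they were Adra1b at 0.0129 (without both mice) and Adrb1 at 0.017 (covariate). In NE they were Slc6a2 at 0.0062 (without both mice), Adra1d at -0.0189 and Adra2a at -0.0458 (GC offsets), and Adrb1 at 0.0016 and 0.0017 (limma) and 0.022 (covariate). For ethanol they were Adra1d at -0.0018 (no filter) and -0.0338 (GC offsets) and Adrb1 at -0.0007 (GC offsets), and for nicotine Adra2a at 0.0016 (without both mice). For the interaction they were Adra2a at 0.0337 (GC offsets) and Adra2c, whose main value is 0.0004, at -0.0023 (RLE), -0.001 (DESeq2), -0.0016 (no filter), -0.0144 and -0.0183 (limma), -0.0146 (covariate) and -0.0624 (without both mice). With 1 mouse left out, ranges that crossed 0 were, in NW, Dbh -0.0745 to 0.0588, Slc6a2 -0.0183 to 0.1159, Adra1a -0.0227 to 0.0333, Adra1d -0.1015 to 0.0722 and Adra2a -0.0519 to 0.0224. In Water-Ethanol they were Adra1a -0.0259 to 0.0398, Adra1b -0.0615 to 0.0129 and Adrb1 -0.0743 to 0.0245, and in NE Slc6a2 -0.0983 to 0.0062, Adra2a -0.0083 to 0.0647 and Adrb1 -0.0544 to 0.0126. For ethanol they were Adra1b -0.0125 to 0.0286, Adra1d -0.0441 to 0.0383 and Adrb1 -0.013 to 0.0689, and for nicotine Slc6a2 -0.0011 to 0.1052. For the interaction they were Slc6a2 -0.1126 to 0.124, Adra2a -0.0433 to 0.0277 and Adra2c -0.0669 to 0.0541. Adrb1 in NW ran from -0.1889 to -0.0146 and Slc6a2 in Water-Ethanol from -0.2059 to -0.0014. The relation of Dbh with Ddc was r = -0.00302 with group means kept. Relations with the cerebellar score changed sign for Dbh (-0.355 without WW mouse 21, -0.329 without both mice), Adra1b (0.248 without WW mouse 21) and, without both, Slc6a2 (-0.0906), Adra1a (0.0869) and Adra1d (0.0452). Dbh had a mean of 72.1 reads, the fewest of the 8 genes. No paired analysis was possible because the replicate numbers are mouse numbers that no groups share.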
